A study of Populus trichocarpa with 12 samples.

Results

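The VND-type NAC genes of black cottonwood (Populus trichocarpa) were followed in developing xylem, where young wood cells expand and build their walls, by RNA sequencing. They were taken as the 8 loci Potri.015G127400, Potri.012G126500, Potri.003G113000, Potri.001G120000, Potri.007G014400, Potri.005G116800, Potri.013G113100 and Potri.019G083600, with 17 transcript models between them, out of 41335 loci and 73013 models in the table. The choice rests on their listing as VND-type loci, not on any measured value, but was made with earlier results of these data known. Neither the count table nor the reference gene table carries a gene name for them. One group comprised 9 transgenic trees of the Nisqually-1 background that overexpress the microRNA miR397a from the CaMV 35S promoter, a viral promoter active in most plant tissues. They are named by line number (1, 3, 5, 6, 9, 10, 17, 26 and 30), with 1 tree sequenced per line, so that differences between lines and between single trees cannot be told apart. The other group comprised 3 wild-type trees of the same background. All were grown in pots in a greenhouse, and the labels used here give no tree age and no vector control. The series' design text counts the transgenic trees as biological replicates, and p-values measure the spread between these single trees.

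VND proteins (VASCULAR-RELATED NAC-DOMAIN) are transcription factors of the plant-specific NAC family. In Arabidopsis they switch on the making of vessel elements, the dead, hollow cells that carry water: their targets include genes for cellulose, xylan and lignin deposition in the secondary wall and genes for programmed cell death. The related SND1/NST-type NAC proteins play the matching part in fibres, and both kinds act through a layer of MYB factors. miR397a acts on mRNAs of laccases, copper enzymes that polymerise lignin in the wall, which lie downstream of these regulators. The comparison of lines with wild type asked, for the VND-type loci, whether the vessel regulators differ when miR397a is overexpressed. No sequence of these loci was available for the work here, and which of the Arabidopsis VND genes each corresponds to was not assigned.

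No VND-type locus passed the test of the lines against wild type. Of the 7 loci that passed the filter on low counts, 0 were called by edgeR's quasi-likelihood test (threshold 0.05 on p adjusted by the Benjamini-Hochberg method over 26298 tested loci) and 0 had an unadjusted p below 0.05. DESeq2 also called 0, where it called 0.5% of all loci with an adjusted p, and gave 0 with an unadjusted p below 0.05. Over all tested loci, 0.0913% were called by edgeR and 11% had an unadjusted p below 0.05. The groups overlapped at all 8 loci, whereas they did not overlap at 2.95% of tested loci. The median log2 fold change (lines over wild type) of the 7 was 0.14, with 1 of the 7 below 0, beside a median of -0.00016 and 50% below 0 over all tested loci. The median size of the change, sign ignored, was 0.14 for the 7 and for all tested loci. Potri.019G083600 passed the filter through lines only, and the filter removed Potri.013G113100, whose log2 fold change was -0.45 without it. The filter thus tilts the median and the sign count of the 7 upward, and no shift is read from them. For 6 of the 7 loci the 95% interval of the fold lay between 0.769 and 1.39, and for Potri.019G083600, which had few reads, it ran from 0.873 to 2.99.

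**Figure D1:**
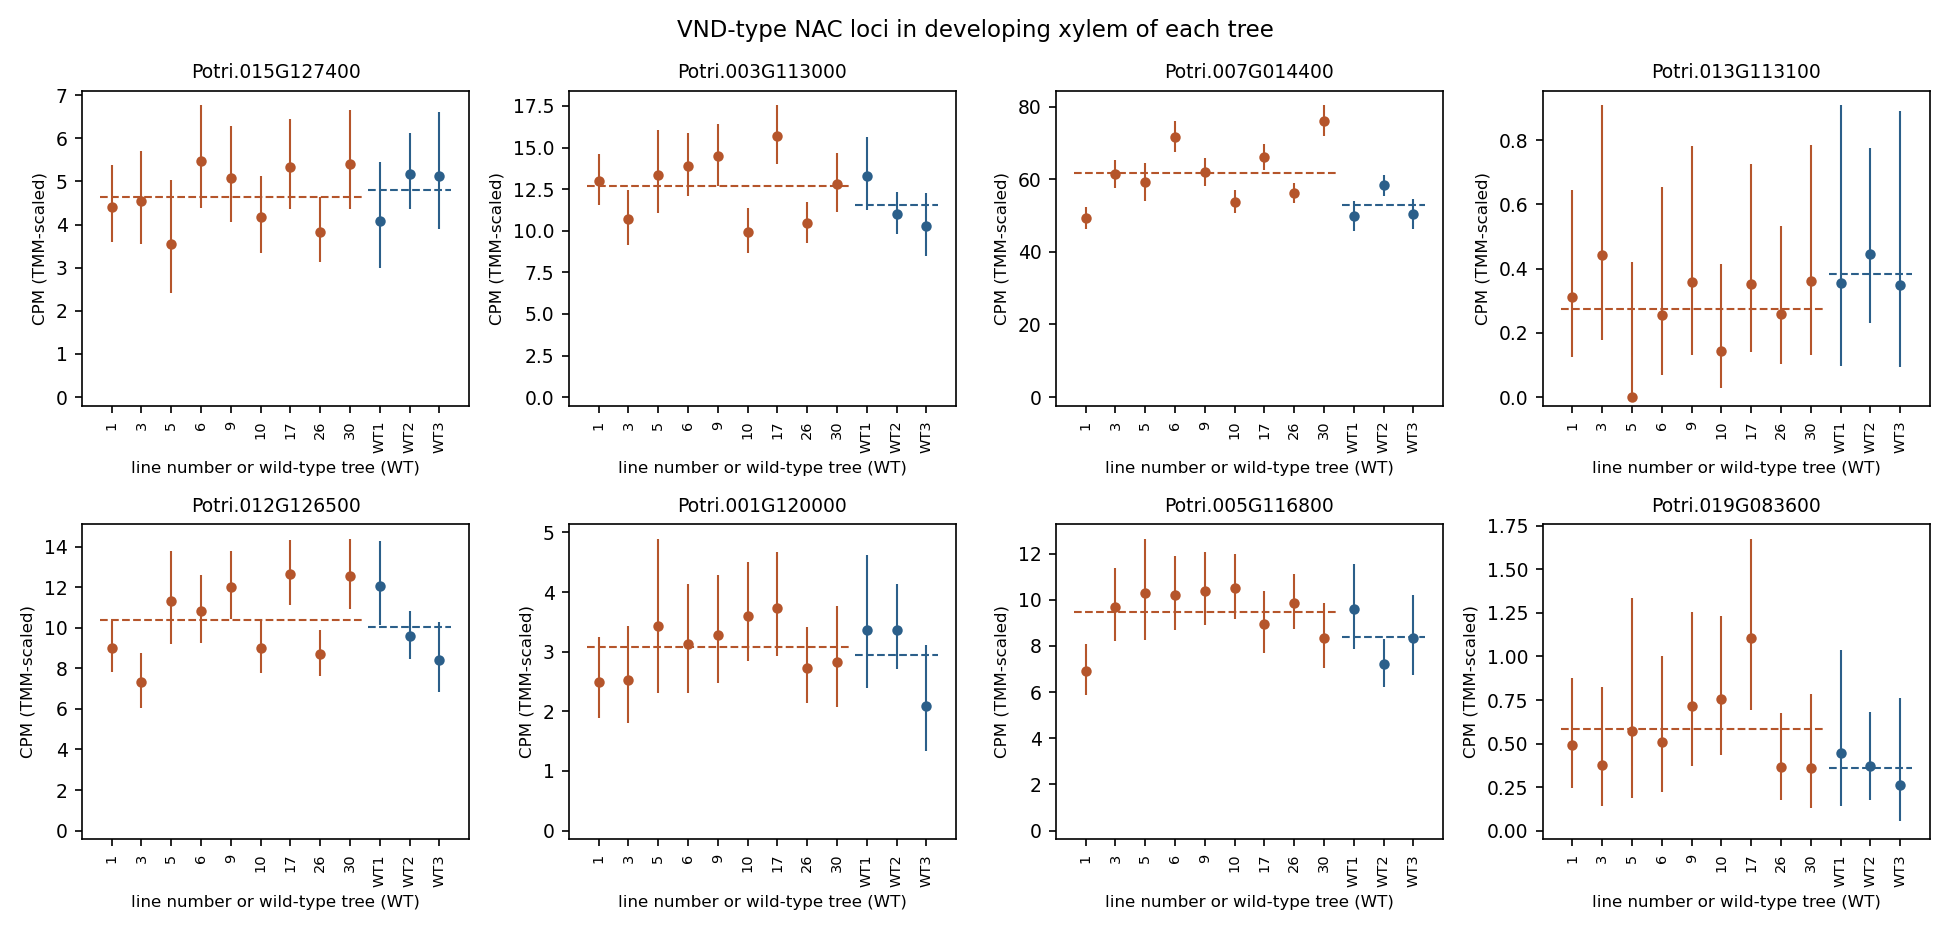
Level of each VND-type locus (CPM, TMM-scaled; separate linear axes from 0) in the 9 lines (red, by line number) and 3 wild-type trees (blue); bars are exact 95% counting intervals and dashed lines group means. Lines and wild type overlap in all 8 panels, and the levels of Potri.007G014400 lie between 49.2 (line 1) and 76.1 CPM (line 30).

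The libraries held 8015226 to 34112839 reads summed over loci in the lines and 12580140 to 23611857 in wild type. Levels are given as CPM, reads scaled to library size by TMM (trimmed mean of M values), without correction for transcript length. Differences in level are therefore read between trees. A ratio, share or percentile that sets reads of different loci side by side also depends on their lengths and does not rank their expression. A stretch of 9 loci on chromosome 5 took from 1.14% to 18.9% of the reads of a library, and values within the 6 libraries with a low share (1 wild-type tree) and the 6 with a high share (2 wild-type trees) are given where the direction or the reading of a result differs between them. As a coarse check of the tissue, the 5 loci fixed as secondary-wall cellulose synthases stood at 489.9 to 1893 CPM in wild type, all above the 99th percentile of tested loci. That percentile also depends on their lengths. Whether other tissue was present could not be checked, since lists of phloem, cambium and leaf markers could not be applied. In bulk tissue, fewer vessel-forming cells and less RNA per cell cannot be told apart.

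The chromosome 7 locus Potri.007G014400 gave the most reads of the family, 12707 over the 12 libraries, and so the firmest comparison. Its level was 61.7 ± 8.51 CPM (SD, n = 9) in the lines, with a lowest value of 49.2 CPM in line 1, a median of 61.3 CPM and a highest of 76.1 CPM in line 30. The wild-type trees 1, 2 and 3 stood at 49.8, 58.3 and 50.3 CPM, a mean of 52.8 ± 4.76 CPM (SD, n = 3). Thus 6 lines lay above the wild-type range, 1 below it and 2 inside it. The estimated log2 fold change of Potri.007G014400 was 0.22 ± 0.12 (SE), which did not pass edgeR's test (adjusted p = 0.510, unadjusted 0.0823), a fold of 1.17 with a 95% interval of 0.978 to 1.39. With 1 tree left out, the unadjusted edgeR p ran from 0.0327 without line 1 (adjusted 0.326) to 0.227 without wild-type tree 1 (adjusted 0.825). Without line 1 the calls over all tested loci also rose, from 24 to 65, so the lower p is not particular to this locus. Among libraries with a low chromosome 5 share, the mean was 64.4 CPM in 5 lines against 58.3 CPM in the 1 wild-type tree, and with a high share 58.3 CPM in 4 lines against 50.1 CPM in 2 wild-type trees. In the high-share set the 4 lines, from 53.8 to 61.9 CPM, lay above both wild-type trees, while in the low-share set line 1 lay below the wild-type tree. How many of all tested loci separate in the high-share set was not counted, so no difference at Potri.007G014400 is read from it. With the share as a covariate the log2 fold change was 0.15 (edgeR adjusted p = 0.428), and the part of the share in the spread was not tested further.

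The chromosome 5 locus Potri.005G116800, which lies outside the stretch of high read share, had 1939 reads. Among the lines it lay between 6.91 (line 1) and 10.5 CPM (line 10), with a median of 9.87 CPM and a mean of 9.47 ± 1.19 CPM (SD, n = 9). Wild-type trees 1, 2 and 3 stood at 9.58, 7.22 and 8.35 CPM, a mean of 8.38 ± 1.18 CPM (SD, n = 3). As for Potri.007G014400, 6 lines exceeded the wild-type range and line 1 alone fell below it. In the high-share libraries the 4 lines, from 9.70 to 10.5 CPM, also lay above both wild-type trees. In the low-share libraries line 1 lay below the wild-type tree. Such separation was not counted over all tested loci. The difference for Potri.005G116800 did not pass the test, at 0.18 ± 0.13 on the log2 scale (SE, with an edgeR adjusted p of 0.618) and a 95% interval of the fold of 0.933 to 1.39. Its unadjusted edgeR p was 0.187, and 0.635 without wild-type tree 2. With limma-voom and sample quality weights, another test of counts, it was 0.0443 (adjusted 0.225). Without wild-type tree 2, the lowest of that group, the log2 fold change was 0.08, and without wild-type tree 1, the highest, it was 0.29.

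On chromosomes 12 and 15, neither locus passed the test, and the estimates lay close to 0. Potri.012G126500 (2166 reads) lay between 7.31 (line 3) and 12.6 CPM (line 17), with a median of 10.8 CPM, and stood at 12.1, 9.58 and 8.43 CPM in wild-type trees 1, 2 and 3. Most lines fell within that wild-type range, 2 above it and 1 below. The log2 ratio of means was 0.23 in the low-share and -0.15 in the high-share libraries, a difference that was not tested. Lines averaged 10.4 ± 1.93 CPM (SD, n = 9) and wild-type trees 10.03 ± 1.85 CPM (SD, n = 3), with a log2 fold change of 0.05 ± 0.17 (SE) and an edgeR adjusted p of 0.936. Potri.015G127400 (1006 reads) lay between 3.54 (line 5) and 5.48 CPM (line 6), with a median of 4.54 CPM, and stood at 4.08, 5.18 and 5.13 CPM in wild type. Its log2 fold change was -0.05 ± 0.15 (SE), with an edgeR adjusted p of 0.926, and 3 lines lay above and 2 below the wild-type range. The sign of both small values turned under single alternatives. Potri.012G126500 stood at -0.0532 without wild-type tree 3 and at -0.0417 with the chromosome 5 share as covariate. Potri.015G127400 stood at 0.0145 without wild-type tree 2 and at 0.0236 with library totals.

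On chromosomes 3 and 1 the picture was similar. Potri.003G113000 (2624 reads) lay between 9.95 (line 10) and 15.7 CPM (line 17), with a median of 13.02 CPM, against 13.3, 11.03 and 10.3 CPM in wild-type trees 1, 2 and 3. Of its 9 lines, 4 lay above and 1 below the wild-type range, and the log2 fold change was 0.14 ± 0.14 (SE), with an edgeR adjusted p of 0.729. It was 0.25 without wild-type tree 1, 0.07 without wild-type tree 3 and 0.05 with the chromosome 5 share as covariate. The log2 ratio of means differed between the library sets, 0.32 in the 6 with a low chromosome 5 share and -0.05 in the 6 with a high one. That difference was not tested, since the low-share set holds 1 wild-type tree. Potri.001G120000 (654 reads) lay between 2.50 (line 1) and 3.73 CPM (line 17), with a median of 3.12 CPM, against 3.37, 3.37 and 2.09 CPM in wild type. No line of Potri.001G120000 fell below the wild-type range and 3 exceeded it. Its log2 fold change was 0.05 ± 0.18 (SE), with an edgeR adjusted p of 0.942, and turned to -0.13 when wild-type tree 3, the lowest of all 12 trees, was left out. Its log2 ratio of means also turned between the library sets, from -0.11 with a low to 0.15 with a high chromosome 5 share.

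The loci on chromosomes 13 and 19 were close to the limit of detection. Potri.019G083600 had 3 to 22 reads per library, 96 in the lines and 18 in wild type. It lay between 0.361 (line 30) and 1.11 CPM (line 17), with a median of 0.510 CPM, against 0.443, 0.370 and 0.261 CPM in wild-type trees 1, 2 and 3. Thus 6 lines exceeded the wild-type range and none fell below it. Its log2 fold change of 0.69 ± 0.42 (SE) was the highest of the family and did not pass the test (edgeR adjusted p = 0.546, unadjusted 0.117). Because Potri.019G083600 passed the filter through lines only, the direction of this value is not independent of the filter. The exact 95% counting interval of line 17, 0.694 to 1.68 CPM, overlapped those of wild-type trees 1 and 3 (0.144 to 1.03 and 0.0538 to 0.762 CPM) and lay above that of wild-type tree 2 (0.177 to 0.680 CPM). Potri.013G113100 had 0 to 12 reads per library, 67 in all, and failed the filter. Lines averaged 0.276 ± 0.134 CPM (SD, n = 9) and wild-type trees 0.382 ± 0.0537 CPM (SD, n = 3), and 5 lines lay below the wild-type range. In line 5, the shallowest library, 0 reads were counted. The floor of 3 counts allows a level of up to 0.343 CPM there and the exact 95% interval up to 0.422 CPM, around the 0.348 CPM that 4 reads gave in wild-type tree 3. With no filter on low counts the log2 fold change of Potri.013G113100 was -0.45 (edgeR adjusted p = 0.761).

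**Figure D2:**
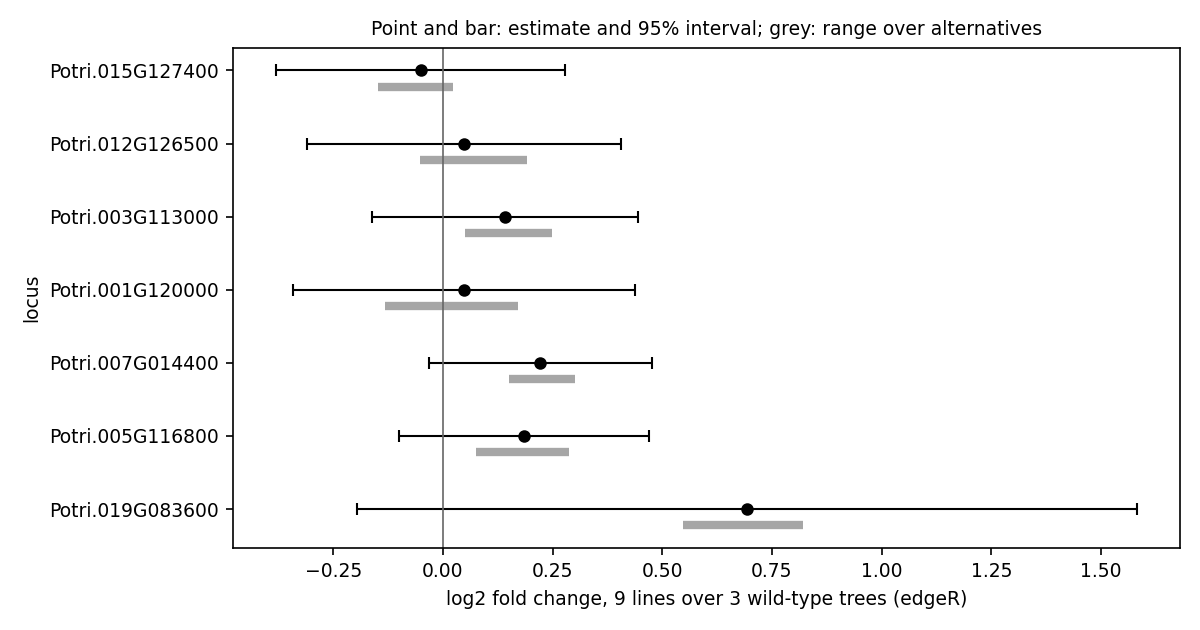
Log2 fold change of the 7 tested VND-type loci, 9 lines over 3 wild-type trees: black points and bars are edgeR estimates with 95% intervals, grey bars the range of estimates over the alternative settings. Every interval spans 0, and that of Potri.019G083600 is the widest.

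The spread between lines was larger than counting error for some loci and close to it for others. For Potri.007G014400 the coefficient of variation over the 9 lines was 13.8%, against 3.09% from read counting alone. The exact counting intervals of its extreme lines, 46.4 to 52.2 CPM in line 1 and 71.9 to 80.4 CPM in line 30, were far apart. Potri.012G126500 varied by 18.6% against 7.57% from counting, Potri.003G113000 by 15.4% against 6.81%, Potri.005G116800 by 12.6% against 7.88%, Potri.015G127400 by 15.5% against 11.3% and Potri.019G083600 by 41.7% against 33.2%. At Potri.001G120000 the 14.95% spread was little above the 13.8% that counting gives. At Potri.013G113100 the spread was 48.6%, beside a counting value of 49.0%. That counting value takes the 0 reads of line 5 as 1 read, so which of these values is larger is not read from them. Fitted between-tree variation (edgeR's biological coefficient of variation) lay below the trend over loci of like abundance at 6 of the 7 tested loci. It stood furthest below at Potri.001G120000, at 16.2% against 24.5%, and at Potri.015G127400, at 14.5% against 22.1%. The exception was Potri.012G126500, at 16.7% against 15.7%. The share of all tested loci below the trend was not computed, so whether 6 of 7 is unusual cannot be said.

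Lines 17 and 1 lay towards opposite ends of the range. Line 17 was the highest of the 9 lines at 4 loci and exceeded the wild-type range at 6 of the 8, with none below it. Line 1 was the lowest at 3 loci, fell below the wild-type range at 3 and exceeded it at 1. Lines 5 and 6 each exceeded the wild-type range at 5 loci, and fell below it at 2 and 1 loci. Like counts over all tested loci were not made, so these cannot be called particular to the VND-type loci. Of all libraries, line 17 had the largest TMM factor (1.20) and the lowest chromosome 5 share (1.14%). Line 1 stood at 1.12 and 3.91%. Summed over the 8 loci, the level lay between 85.9 (line 1) and 118.8 CPM (line 30) in transgenic trees. The sum averaged 102.8 ± 11.9 CPM (SD, n = 9) over lines and 91.2 ± 5.34 CPM (SD, n = 3) over wild-type trees, which stood at 92.9, 95.5 and 85.2 CPM, so the groups overlapped. Reads of Potri.007G014400 made up 59.5% of this sum, which mostly follows that locus.

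Models of a locus could be told apart only where their counts differed. Potri.012G126500, Potri.003G113000 and Potri.013G113100 had 1 model each, and both models of Potri.019G083600 had the same count in every library. The other 4 loci had models with overlapping but unequal counts. The second model of Potri.001G120000 held 83.9% of the reads of the first, with 75% in wild-type tree 3, and that of Potri.015G127400 held 94.6%. At Potri.007G014400 and Potri.005G116800 each of the 4 models held at least 98.1% of the reads of the most-counted one. The share of reads of the first model of Potri.001G120000 that the second lacked averaged 15.6 ± 3.29% (SD, n = 9) over lines and 19.6 ± 4.92% (SD, n = 3) over wild-type trees (exact permutation test over 220 splits, two-sided, p = 0.132). These shares rest on 78 reads in the lines and 27 in wild type, and the highest share, in wild-type tree 3, on 24 reads of the first model. For Potri.015G127400 the missing share was 5.24 ± 2.51% (SD, n = 9) and 6.001 ± 2.26% (SD, n = 3; exact permutation p = 0.641). For Potri.007G014400 it was 1.20 ± 0.346% and 1.12 ± 0.698% (exact permutation p = 0.791). For Potri.005G116800 it was 1.79 ± 0.941% and 2.13 ± 0.947% (exact permutation p = 0.609). No shift in models was thus detectable at any of the 4 loci. The test of model usage across the whole table (edgeR diffSpliceDGE) called 0% of 7570 loci, none of the 4 among them, and gave an unadjusted p below 0.05 at 6 loci (0.0793%). That test takes the counts of models as separate reads, which they are not here, so it says little about model usage.

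**Figure D3:**
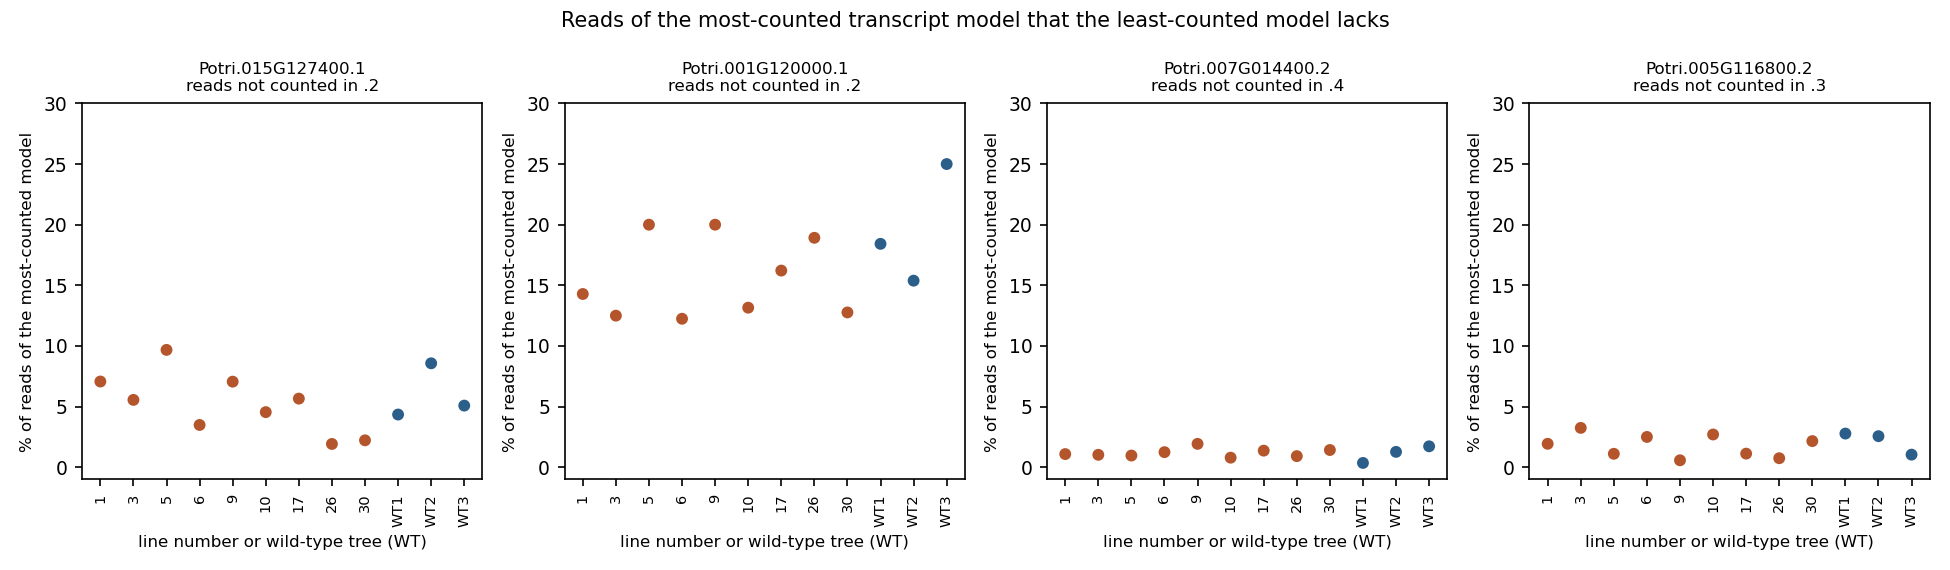
Percentage of the reads of the most-counted transcript model that the least-counted model of the same locus lacks, by tree (red: lines, blue: wild type), for the 4 VND-type loci whose models differ in counts. The share is at least 12.2% at Potri.001G120000 and at most 3.25% at Potri.007G014400 and Potri.005G116800, with lines and wild type intermixed.

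Across the 12 trees no pair of VND-type loci passed the adjusted test for varying together with TMM scaling, whereas 17 of 28 pairs passed with library totals. With TMM, of 28 pairs, 21 had a positive Pearson r of log2 CPM, with a median of 0.25. A permutation test with Benjamini-Hochberg adjustment over the 28 pairs passed 0, although 5 had an unadjusted p below 0.05. Pairs among all tested loci were not counted under either scaling, so these counts cannot be called particular to the VND-type loci. TMM factors ran from 0.797 (line 26) to 1.20 (line 17). The closest pair by p was Potri.012G126500 and Potri.003G113000, on different chromosomes (r = 0.82, permutation p = 0.00223, adjusted 0.0624; Spearman rho = 0.77, permutation p = 0.00495, adjusted 0.138). For this pair r was 0.80 within the 9 lines (permutation p = 0.0131, adjusted 0.183), and 0.59 and 0.87 within the 6 libraries of low and of high chromosome 5 share. Without lines 3 and 17, the trees farthest from the median of Potri.012G126500, r was 0.79. Next came Potri.001G120000 and Potri.019G083600 (r = 0.75, permutation p = 0.00529, adjusted 0.0741; rho = 0.73, permutation p = 0.00989, adjusted 0.138). This r was 0.84 within the lines and 0.57 and 0.89 within the low-share and high-share libraries, and it rests on the few reads of Potri.019G083600. It was 0.74 without wild-type tree 3 and line 1, the trees farthest from the median of Potri.001G120000. Line 17, the highest tree at Potri.019G083600, was kept in that value.

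In the poplar genome, chromosomes 12 and 15, 1 and 3, 5 and 7, and 13 and 19 carry large paired blocks from an ancient duplication. Whether the loci of such a pair are copies of each other was not examined here. Over all 28 pairs the median r was 0.25, and the 4 pairs on paired chromosomes lay on both sides of it. Pearson r was 0.23 for Potri.015G127400 with Potri.012G126500 (rho = 0.29, permutation adjusted p = 0.676) and 0.45 for Potri.003G113000 with Potri.001G120000 (rho = 0.40, permutation adjusted p = 0.390). It was 0.22 for Potri.007G014400 with Potri.005G116800 (rho = 0.26, permutation adjusted p = 0.696) and -0.26 for Potri.013G113100 with Potri.019G083600 (rho = -0.38, permutation adjusted p = 0.632). With library totals these r were, in the same order, 0.73, 0.79, 0.73 and -0.07 (permutation adjusted p = 0.0222, 0.0113, 0.0222 and 0.853). The first 3 pairs were thus among the 17 of 28 that passed under that scaling. The number of reads of Potri.007G014400 per read of Potri.005G116800 ran from 5.12 in line 10 to 9.10 in line 30. Pooled, this ratio was 6.49 in the lines and 6.80 in wild type. For Potri.003G113000 over Potri.001G120000 the pooled ratios were 4.11 and 3.70, and for Potri.015G127400 over Potri.012G126500 they were 0.455 and 0.498. For Potri.013G113100 over Potri.019G083600, with 20 and 18 reads in wild type, they were 0.490 and 1.11, a difference that was not tested. The labels used here do not say how reads with several alignments were counted, so values of near-identical copies are uncertain.

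**Figure D4:**
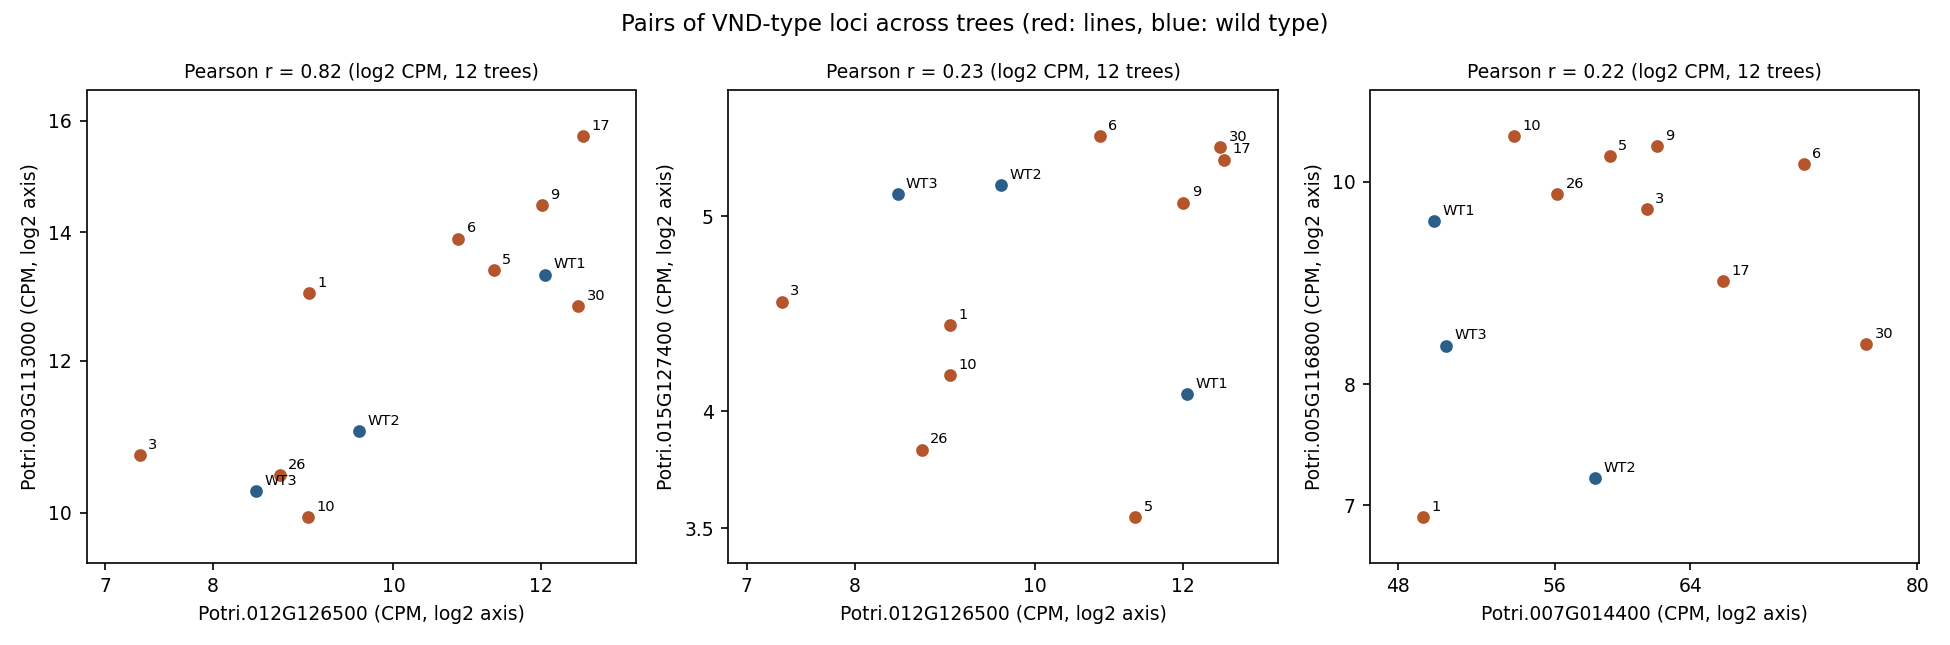
Levels (CPM, log2 axes) of 3 pairs of VND-type loci in the 12 trees (red: lines by number, blue: wild type); r is from log2 CPM with a prior count of 2. Potri.012G126500 and Potri.003G113000 show the highest r of all pairs (0.82), while the pairs on chromosomes 12 and 15 and on 5 and 7 stand at r = 0.23 and 0.22 with TMM and at 0.73 and 0.73 with library totals.

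The 5 loci whose log2 CPM followed the summed VND-type level most closely over the 12 trees were Potri.004G019700 (r = 0.91), Potri.007G134600 (r = 0.90), Potri.008G074800 (r = 0.90), Potri.006G073000 (r = 0.90) and Potri.009G121900 (r = 0.89). They were picked as the highest of 26291 other tested loci, of which 9.11% had an r above 0.5. No name for these 5 loci was found in the table or the reference, and none passed the test of lines against wild type (edgeR adjusted p from 0.537 to 0.866).

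Other regulators and targets of wall formation were examined as lists of loci, fixed from general knowledge of poplar locus numbers and not annotated in the files, so members are not named. Of 4 loci listed as SND1/NST-type NAC genes, which act in fibres, 0 passed the test and the median log2 fold change was -0.05 (range -0.18 to 0.18). Their summed level averaged 207 ± 15.7 CPM (SD, n = 9) over lines and 201 ± 6.22 CPM (SD, n = 3) over wild-type trees. Of 4 loci listed as secondary-wall master MYB genes, 0 passed, with a median of -0.02 and summed levels of 67.3 ± 4.61 and 64.5 ± 3.70 CPM (SD, n = 9 and n = 3). Of 5 loci listed as secondary-wall cellulose synthases, 0 passed, with a median of 0.21, a range of 0.11 to 0.25 and edgeR adjusted p of at least 0.434. An unadjusted edgeR p below 0.05 was met by 1 of the 4 NAC loci, 0 of the 4 MYB loci and 1 of the 5 cellulose synthase loci. Over all tested loci 11% met it and 0.0913% were called by edgeR, so these counts are not read as results about the lists.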

How the data were processed

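RNA from developing xylem of 12 trees was extracted with CTAB and made into libraries with an Illumina TruSeq RNA kit, per the labels' protocols. The submitters' processing notes name bedtools 2.14.2, Bowtie, TopHat and TopHat2 2.0.3 without a role. Not given in the sources used here are genome build, annotation and aligner settings. Raw counts were deposited by the authors as whole numbers per transcript model, with 1 column per tree. A read in a stretch shared by several models was counted in each, so each locus is represented by its most-counted model.

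After filterByExpr (minimum count 10) and TMM scaling, loci were tested in edgeR 4.0.16 (R 4.3.3; robust quasi-likelihood fits, 9 lines against 3 wild-type trees, Benjamini-Hochberg adjustment, threshold 0.05). The SE is the log2 fold change divided by the square root of F, and 95% intervals use the t distribution. Counting intervals are exact Poisson intervals. They and the floor of 3 counts cover counting error only. Log2 CPM for correlations used a prior count of 2, with 100000 permutations. Alternatives included DESeq2 1.42.0 and limma-voom (limma 3.58.1). Tests were checked on simulated data. For model usage the simulated models had independent counts, unlike the models here, so that check does not cover shared reads. Members and lists were chosen with earlier results of these data known. The text names every member and the 5 loci closest in pattern to their sum. Lists to be matched on gene descriptions (vessel proteases, VND partners, phloem, cambium and leaf markers) could not be applied, as the reference table (P.trichocarpa_v4.1) holds no descriptions and matched none of the members. The comparison of reads missing from the least-counted model was chosen after seeing the data.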

Additional observations from a re-analysis of the deposited data

How the results depend on the processing

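Across all 21 alternative fits (other scaling, filters, tools, transcript models, the chromosome 5 share as covariate, and each tree left out), 0 VND-type loci were called. These fits called 16 to 134 loci in all, out of at least 26032 tested. With so small a share called, 0 calls among so few loci is not read as a result about them. The median log2 fold change of the tested loci (0.14) ranged from 0.05 to 0.25, and from 0.05 to 0.19 with 1 tree left out. Adjusted p stayed at or above 0.225 for every tested locus. Signs turned only at 3 loci with values near 0: Potri.015G127400 (0.0236 with library totals; -0.148 to 0.0145 with 1 tree left out), Potri.012G126500 (-0.0417 with the chromosome 5 share as covariate; -0.0532 to 0.191) and Potri.001G120000 (-0.0324 with limma-voom and sample quality weights; -0.133 to 0.172). Potri.019G083600 failed the filter in the 5 fits without line 1, 3, 10, 17 or 26. Model usage gave 0 called loci of the family in all 15 alternatives, which include the exact permutation test of missing reads. The others reran the test that takes shared reads as separate, so their 0 calls say little about model usage. With library totals in place of TMM, 17 of 28 pairs of loci passed the adjusted permutation test against 0 with TMM, and r of Potri.012G126500 with Potri.003G113000 was 0.93 (permutation adjusted p = 0.00084). The cause of this shift was not tested, and pairs among all tested loci were not counted for comparison. Pairs passing numbered 0 with a prior count of 0.5 and within the 9 lines. The summed level in the lines was 106 CPM with library totals. No paired analysis was possible because line numbers and wild-type tree numbers label unrelated trees. Read counts were lowest at Potri.013G113100 and Potri.019G083600, with at most 22 reads in a library, and whether deeper sequencing would change their result was not tested.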
